A study of Mus musculus with 6 samples.

Results

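Among the 55421 genes counted in activated splenic B cells of mice, 92 abundant genes with a standard name had at most 50% of their WT transcript level in cells deficient in the RNA-binding protein hnRNPL. They were chosen from the values themselves. A member had a mean of at least 300 normalized counts in WT cells, a mean in hnRNPL-deficient cells of at most 0.5 of that, and no hnRNPL-deficient value as high as the lowest WT value. Predicted genes, Rik clones, immunoglobulin, histone, solute carrier and TNF family genes and 8 single genes were left out by name, which removed 14 of the 106 genes past the thresholds. The 92 are a small share of the 8589 named genes with a WT mean of at least 300. Because the rule used every library of the contrast, the values of the members are a description and carry no test.

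Spleens came from 3 WT mice and 3 mice deficient in hnRNPL. Their B cells were activated for 24 h in culture with LPS at 5 μg/ml plus IL-4 at 5 ng/ml, and GFP+ cells were sorted. Mice of the WT group carried CD21-cre and the Rosa mT/mG reporter, which turns from tdTomato to GFP in cells where Cre has acted. Mice of the hnRNPL-deficient group carried both of these and hnRNPL F/F, the floxed gene on both chromosomes. Thus Cre, the reporter, the activation and the sort were shared by the groups, and deletion of the floxed gene was not. Mice were on the C57BL6/J background, of both sexes and older than 6 weeks. CD21-cre acts in mature peripheral B cells, that is, in the mouse and before the culture. Poly(A) RNA was sequenced as 1 library per mouse (WT1 to WT3 and KO1 to KO3 below), and p-values therefore measure the spread between mice. The values are normalized counts, that is, reads per gene divided by a size factor of the library.

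hnRNPL binds CA-rich stretches of nascent RNA and regulates splicing, polyadenylation and RNA stability. A B cell that receives LPS and IL-4 leaves its resting state, grows, induces cytokines and early transcription factors, and enters the cell cycle within the following days. LPS is sensed by TLR4 and also feeds a type I interferon response, in which the receptor signals to genes with an interferon-stimulated response element in their promoters.

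The libraries held 40395186 to 75180749 reads on genes, with KO3 the shallowest, and 24009 to 26283 genes detected. Hnrnpl itself had 24371, 25579.7 and 24174 normalized counts in WT libraries and 2178, 1519 and 1297 in hnRNPL-deficient libraries, 6.74% of the WT mean. All 6 listed B cell markers were abundant, with summed levels of 256416 to 332793 in WT and 257826 to 309717 in hnRNPL-deficient libraries. The summed T cell markers stayed between 15.1 and 33.7, and Siglech, Clec9a, Ncr1, S100a8 and S100a9 were listed at 0 in all 6. The 7 myeloid markers summed to 260.0 to 331 in WT and 1239 to 1382 in hnRNPL-deficient cells, nearly all of it Adgre1, while Lyz2 was at 0 in 5 libraries and at 2.02 in KO2. The summed levels of NK cell markers (26.8 to 33.7 in WT, 46.4 to 73.0 in hnRNPL-deficient libraries) and erythroid markers (13.8 to 37.1 and 54.1 to 82.8) were low, and those of dendritic cell markers were 661 to 794 and 656 to 725. Limma called 1 marker lower in each of the lists for follicular, marginal zone and plasma cells and 2 higher for marginal zone cells, and it called 1 marker higher in each of the lists for myeloid (Adgre1), dendritic (Xcr1), NK (Prf1) and erythroid cells (Hbb-bt). Their part in the results below was not tested. One library of each group, WT3 and KO2, had high Xist (98507 and 98219), against at most 7.21 in the 4 others.

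The hnRNPL-deficient mean of the members was 11.8% to 50% of the WT mean, with a median of 40.4%, beside a median of 96.7% over all abundant named genes. Most members were close to the threshold, with 47 between 40% and 50%, 23 under 33% and 4 under 25%. WT means ran from 304 to 19514 with a median of 1461, and the 10 highest were 9688 or more. The lowest WT library exceeded the highest hnRNPL-deficient library by a factor of 1.14 to 5.17, and by more than 2 for 36 members. All 92 were also called lower by limma, where 4.08% of the 17640 tested genes were called lower and 7.28% higher. On recovered whole reads edgeR called all 92 lower (3.74% of tested genes lower, 8.01% higher) and so did DESeq2 (4.51% lower, 8.01% higher). These counts follow from the rule and nothing is read from them. For comparison of the rule alone, 16.3% of tested genes had every hnRNPL-deficient value under every WT value. The same rule in the opposite direction, with the minimum of 300 set on the hnRNPL-deficient mean, took 127 named genes.

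**Figure D1:**
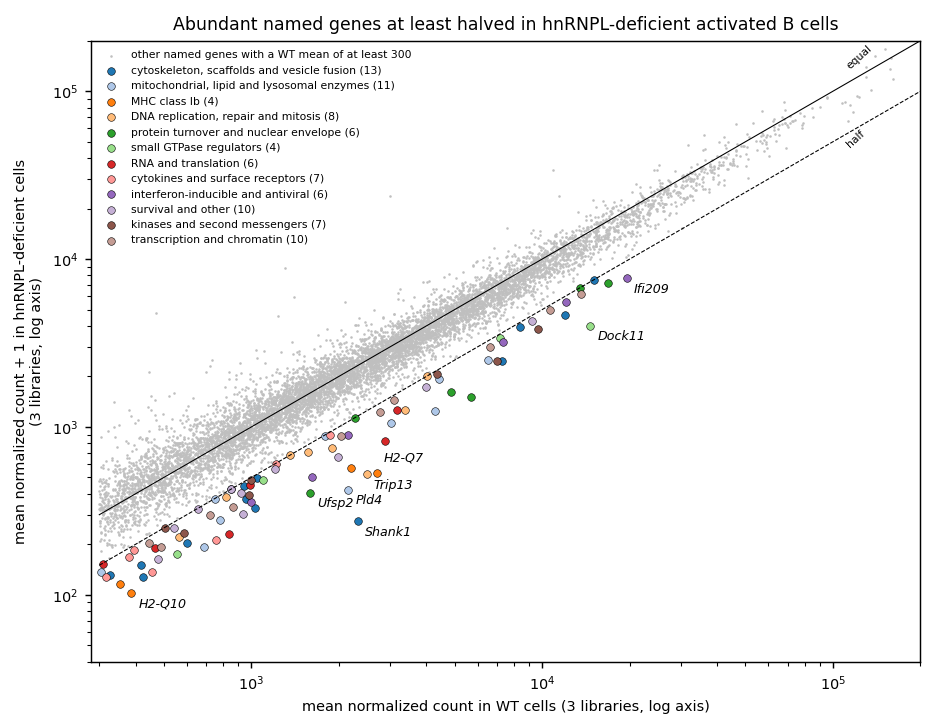
Each point is a gene with a WT mean of at least 300 normalized counts, with the mean of the 3 WT libraries on the horizontal axis and the mean of the 3 hnRNPL-deficient libraries, plus 1, on the vertical axis (both log). The 92 members are coloured by role and lie on or under the dashed line of a 50% level, with Shank1 (11.8%) farthest below it and Ifi209 (19514) the most abundant, while the other genes (grey) gather along the line of equal levels.

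The margins of the rule were crowded on the side of the ratio. Dcaf7, Fam120c and Cd2ap stood just inside it at 50% each, and Neurl3, Lurap1 and Crebbp just outside at 50.1%, 50.2% and 50.5%. At the WT minimum, Mgll, Dancr and Il10 entered with means of 304, 309 and 316, whereas Ttll3, Nod2 and Rnf225 did not with means of 290.0, 282 and 256. The narrowest gaps between groups belonged to Sh3tc1 (lowest WT 485, highest hnRNPL-deficient 425), Nrp2 (1399 and 1143) and Crlf2 (266 and 209). No abundant named gene at or under 50% was lost for overlapping groups.

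Cytokines and surface receptors made up 7 members. Il27ra, the signalling chain of the IL-27 receptor, had 597, 929 and 736 normalized counts in WT libraries and 215, 243 and 174 in hnRNPL-deficient libraries (27.9%). The rule excludes overlap of the groups, and here the lowest WT value was 2.45 times the highest hnRNPL-deficient value. Il10, an anti-inflammatory cytokine that activated B cells can secrete, had 453, 252 and 242 in WT and 135, 147 and 94.6 in hnRNPL-deficient cells (39.8%). WT1 stood well above the other WT libraries here. Lta, lymphotoxin alpha, had 1051, 1398 and 1187 against 546, 642 and 625 (49.9%), a smaller and more even difference. Crlf2, the chain that joins the IL-7 receptor alpha chain to form the TSLP receptor, had 266, 445 and 429 against 170.4, 209 and 126 (44.3%). Grm6, a glutamate receptor (29.9%), Emb, a partner of monocarboxylate transporters (46.9%), and Nrp2, a semaphorin and VEGF receptor (48.0%), completed this group.

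The other cytokine genes went both ways. In the list of cytokines and their receptors, 25 tested genes were not members. Limma called 2 of them lower and 5 higher (4.08% and 7.28% of all tested genes). Their median log2 fold change was 0.16, beside -0.03 over all tested genes. Il7r, the partner of Crlf2, rose from 4.64, 2.59 and 3.82 to 27.0, 28.3 and 37.0 (log2 fold change 2.77, SE 0.388, limma adjusted p = 0.00388). Il10ra, the receptor chain for IL-10, rose from a mean of 2025 to 3166 (log2 fold change 0.65, SE 0.138, limma adjusted p = 0.0205), although the fold dropped under 1.5 without WT1 or KO2. The largest rise was that of Csf2, which encodes GM-CSF, from 16.2, 4.32 and 3.06 to 139.7, 82.8 and 196 (log2 fold change 4.20, SE 0.573, limma adjusted p = 0.00358). Il6 also rose, from a mean of 465 to 1447 (log2 fold change 1.62, SE 0.273, limma adjusted p = 0.00855). Ccl3, a chemokine, had the largest fall among non-members, from a mean of 55.6 to 20 (log2 fold change -1.42, SE 0.40, limma adjusted p = 0.0549), a call that was lost without WT1, WT3 or KO3 (limma adjusted p up to 0.137).

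Interferon-inducible genes supplied 6 members. Ifi209, a nuclear DNA-binding protein of the HIN-200 family and the most abundant member, had 21798, 17885 and 18861 normalized counts in WT libraries and 7279, 6504 and 9250.5 in hnRNPL-deficient libraries (39.3%). Oasl1, which limits translation of Irf7, had 11101, 13379 and 11894 against 4954, 6296 and 5309.9 (45.5%). Ifit1, which binds foreign RNA lacking cap methylation, had 8114, 7408 and 6507 against 3007, 3102 and 3514 (43.7%). In these 3 genes the groups were far apart and the libraries within a group close together. Isg15, a ubiquitin-like modifier, had 2206, 2273 and 1961 against 874, 1116 and 703 (41.8%). Oasl2, a 2'-5' oligoadenylate synthetase-like protein, had 1484, 1653 and 1722 against 349, 436 and 731 (31.2%). Cxcl10, a chemokine for CXCR3+ cells, had 1349.7, 882 and 760.1 against 362, 297 and 414 (35.9%). KO3 was the highest hnRNPL-deficient library in 4 of the 6, and WT1 the highest WT library in 3.

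Promoter sequences from RefSeq (GRCm38.p6) were matched for 74 of the 92 members. The core of an interferon-stimulated response element, GAAA followed by any 2 bases and GAAA, was searched on both strands in the 250 bases before the start. It was in 6 of the 74 (8.11%), against 3.45% of the 6749 abundant named genes with a promoter and 3.49% of all 26794 promoters. Of the 6 interferon-inducible members, Isg15, Ifit1 and Cxcl10 held a match, and the stretches that contain it are printed because they show how differently the element is arranged in genes with similar ratios. Capitals mark the matches, with TTTC in place of GAAA where the match is on the other strand. The stretches are chr4:156200836-156200935 (minus strand), chr19:34640749-34640848 (plus strand) and chr5:92349040-92349139 (minus strand), read 5′ to 3′ along the gene.
Isg15: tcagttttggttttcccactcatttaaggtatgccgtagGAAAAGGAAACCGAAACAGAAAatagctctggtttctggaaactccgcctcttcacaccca
Ifit1: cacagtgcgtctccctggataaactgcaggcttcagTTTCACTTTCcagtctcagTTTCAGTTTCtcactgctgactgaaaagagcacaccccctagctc
Cxcl10: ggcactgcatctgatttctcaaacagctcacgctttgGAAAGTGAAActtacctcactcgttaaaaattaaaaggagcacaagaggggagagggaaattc
The Isg15 stretch holds 3 overlapping matches that begin 66, 72 and 78 bases before the start, Ifit1 has 2 separate ones at 85 and 104 bases, and Cxcl10 a single one at 213 bases. The other members with a match were Tm9sf4 (113 bases), Tmco4 (85 bases) and Trmt10a (197 bases), which are not known as interferon-inducible genes. For Oasl1, Oasl2 and Ifi209 these letters were not in this window. Other forms of the element were not searched, in these or in any other members.

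The genes of the pathway that are not members were called in both directions, though more often lower. Of the 54 tested genes of the interferon list that were not members, limma called 8 lower and 2 higher (4.08% and 7.28% of all tested genes). Over the 54, the median log2 fold change was -0.16 and 37 were below 0 (52.7% of all tested genes). Ifih1, the RNA sensor MDA5, fell from 11075, 9710.5 and 8906 to 5635, 5307 and 5078 (log2 fold change -0.89, SE 0.107, limma adjusted p = 0.00218). Rsad2, or viperin, had the largest fall among them, from 1231, 1302 and 981 to 627, 530.1 and 688 (log2 fold change -0.93, SE 0.157, limma adjusted p = 0.00855). Dhx58, a regulator of RNA sensing, fell as well (58.1% of WT, log2 fold change -0.79, limma adjusted p = 0.00521). The 3 calls were kept with each library left out in turn. Oas3 (63.3%) lost its call without KO1, Zbp1 (65.9%) and Ifi47 (65.6%) without WT1, each because the fold dropped just under 1.5. The calls of Zbp1 and Ifi47 were also lost under equal totals, quantile normalization and edgeR, and the calls of Ifi207 and Oas1g depended on 4 and 5 of the libraries. Ifi44, an interferon-inducible gene of low level, rose from 70.8, 43.2 and 42.1 to 133, 115 and 156 (log2 fold change 1.39, SE 0.280, limma adjusted p = 0.0173). Irf7, a transcription factor of the response, rose from a mean of 1322 to 1974 (log2 fold change 0.59, limma adjusted p = 0.0171), with a call that was kept without WT2 or KO3 and lost without each other library, with DESeq2 and with a pseudocount of 5. The receptor chain Ifnar1 (116% of WT) and the signalling factors Stat2 (125%) and Irf9 (118%) were not called. Among genes whose products bind those of members, Ifit2 (75.7%) and Ifit3 (125%), partners of Ifit1, and Usp18 (69.8%), which removes Isg15 from proteins, were not called either. Ifit2 and Usp18 had a limma adjusted p of 0.0662 and 0.0220 but fell less than 1.5-fold.

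**Figure D2:**
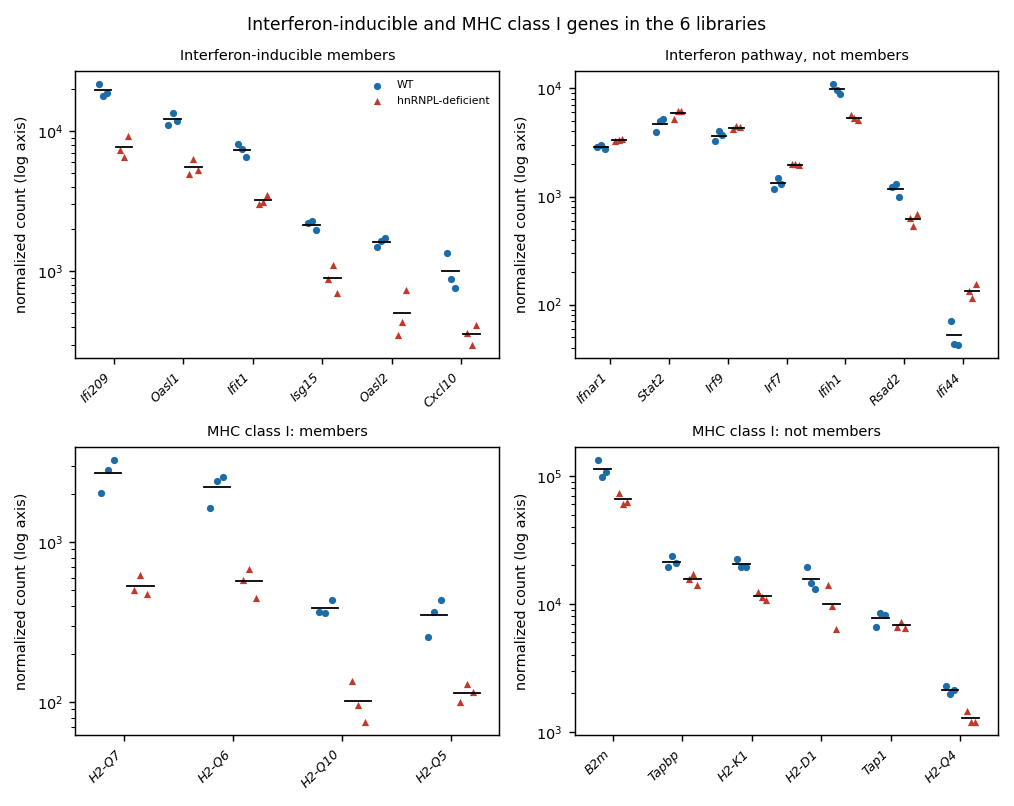
Normalized counts (log axis) of interferon-inducible and MHC class I genes in each of the 3 WT (blue circles) and 3 hnRNPL-deficient libraries (red triangles), with a line at the mean of each group. In both left panels, the members, the groups do not overlap, which the rule requires (Oasl2 1484 to 1722 against 349 to 731). In the right panels Ifih1 and H2-K1 fell, Irf7 and Ifi44 rose and Stat2, Irf9, H2-D1 and Tap1 were not called.

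The Qa region of the MHC gave 4 members, all class Ib genes of the H2-Q cluster. H2-Q7 and H2-Q6, which encode the Qa-2 antigen, had 2029.7, 2816 and 3245 (H2-Q7) and 1632, 2419 and 2560.3 (H2-Q6) normalized counts in WT libraries. In hnRNPL-deficient libraries they had 503, 621 and 476 (19.8%) and 576, 682 and 447 (25.8%). H2-Q10, known as a secreted class I molecule of the liver, had 364, 359 and 436 against 135, 95.9 and 75.4 (26.4%). H2-Q5, which the annotation lists as a polymorphic pseudogene, had 254, 368 and 435 against 100.1, 129 and 115 (32.6%). As a group these were the lowest of all roles, with a median of 26.1%. WT3 was the highest WT library for all 4 and WT1 the lowest for 3, and KO3 was the lowest hnRNPL-deficient library for 3. The genes resemble each other, so reads may be split between them. Of the windows of 100 bases in the longest transcript, 13.5% of H2-Q7, 12.9% of H2-Q5, 10.8% of H2-Q6 and 8.80% of H2-Q10 were identical to a window of another gene.

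H2-Q6 and H2-Q7 were also the 2 members whose promoter held, on either strand, the form of an NF-kB site shown in capitals below. It was found in 0.178% of abundant named genes and 0.101% of all promoters. The 120 bases around it are printed to show how alike the neighbours are, from chr17:35424657-35424776 and chr17:35439002-35439121 (both plus strand, GRCm38.p6), with the match in capitals.
H2-Q6: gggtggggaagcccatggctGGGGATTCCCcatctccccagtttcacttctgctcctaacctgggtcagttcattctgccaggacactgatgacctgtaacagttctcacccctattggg
H2-Q7: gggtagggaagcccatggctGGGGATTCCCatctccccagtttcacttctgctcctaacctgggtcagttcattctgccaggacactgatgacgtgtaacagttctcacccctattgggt
The match begins 173 bases before the start of H2-Q6 and 133 bases before that of H2-Q7. In a gapped alignment 117 of the 120 bases were identical, 2 differed and 1 in each was unpaired. Other motifs were searched in the same windows and on both strands. The E-box CACGTG was in 8 of the 74 promoters (10.8%, against 10.5% of abundant named genes), the cell cycle element TTTGAA in 7 (9.46% against 13.0%), and the EGR site GCGTGGGCG in 1, that of Bcl2a1d (1.35% against 1.26%). The E2F sites TTTCGCGC and TTTGGCGC were in none (0.711% and 1.07% of abundant named genes), nor was a second NF-kB form (0.222%). At shares this low, finding none in 74 promoters does not show that members lack these sites. Promoters of Fancd2, Rfc2, Dlgap5 and Tex15, members for DNA replication, repair and mitosis, were among those not matched and not searched.

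The rest of the class I system stood closer to the WT level. Limma called 5 of the 23 other tested genes of the MHC class I list lower and none higher (percent of all tested genes called lower 4.08%), with a median log2 fold change of -0.38. B2m, the light chain of every class I molecule, fell from 133071, 99091 and 107314 to 74108, 61013 and 63264 (log2 fold change -0.77, SE 0.143, limma adjusted p = 0.0129). Under quantile normalization that call was lost. H2-K1, the classical class I heavy chain, fell from 22300.4, 19450.4 and 19422 to 12391, 11384 and 10789.7 (log2 fold change -0.82, SE 0.102, limma adjusted p = 0.00243), and H2-Q4 (60.3%, log2 fold change -0.73) and H2-T10 (56.8%, log2 fold change -0.81) also fell. H2-T22 (63.3%) was called with all libraries and lost without WT2, WT3, KO1 or KO3 (limma adjusted p up to 0.140). H2-D1, the other classical heavy chain of these mice, varied widely (19521, 14698 and 13161 against 14152, 9705 and 6324) and was not called (limma adjusted p = 0.133). The peptide transporter genes Tap1 (87.6%) and Tap2 (76.3%) and the loading factor Tapbp (73.3%) did not pass both thresholds.

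Transcription and chromatin genes numbered 10, of which 4 were in the list of early activation factors. Nr4a3, an orphan nuclear receptor induced by antigen receptor and mitogen signals, had 841, 877 and 877 normalized counts in WT libraries and 314, 365 and 314 in hnRNPL-deficient libraries (38.3%). Egr3, a zinc-finger factor of the same early wave, had 2611, 2569 and 3109 against 1286, 1171 and 1206 (44.2%). Both had groups that were tight and well separated. Rara, the retinoic acid receptor alpha, had 2459, 3626 and 3181 against 1294, 1831 and 1188 (46.6%), and Pbx3, a TALE homeodomain factor, 513, 389.9 and 562 against 212, 181 and 179.6 (39.1%). Their paralogs, named after their values were seen, were not called or not tested. Nr4a1 was at 125% (means of 265 and 331) and Egr2 at 105% (673 and 710.0), and Nr4a2, with means of 10.5 and 6.97, was not in the limma fit. Egr1 was at 129% (4065 and 5232), with a limma adjusted p of 0.0810 but under 1.5-fold. Of the 21 other tested genes in the list, 14 had a log2 fold change below 0 (52.7% of all tested genes), with a median of -0.35. Limma called 2 of the 21 lower and 1 higher (4.08% and 7.28% of all tested genes). Fosb, an AP-1 subunit, fell from 77.8, 155 and 223 to 22.5, 60.6 and 45.2 (log2 fold change -1.78, SE 0.466, limma adjusted p = 0.0430) and lost its call without WT2, WT3 or KO1 (limma adjusted p up to 0.152). Atf3 fell too (59.9%, limma adjusted p = 0.0309), a call lost without WT2 or KO2. Bhlhe40, a repressor of Il10 in lymphocytes, rose from a mean of 1390.5 to 2210.5 (log2 fold change 0.67, SE 0.149, limma adjusted p = 0.0253), a call lost without WT3 (limma adjusted p = 0.101).

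Baz1b, Ccar1 and Mybl2 had the highest WT means among the transcription and chromatin members. Baz1b, a subunit of the WICH remodelling complex, had 13438, 14179 and 13237 against 5544, 6590.0 and 6357 (45.3%). Ccar1, a coactivator in cell cycle and apoptosis control, had 11513, 9991 and 10312 against 4043, 4657 and 6228 (46.9%), with KO3 well above the other hnRNPL-deficient libraries. Mybl2, the B-MYB factor that drives G2/M genes, had 6874, 6602 and 6389 against 3111, 3601 and 2289 (45.3%). Reads of Mybl2 are partly shared, as 20% of its windows recur in other genes such as Gm3320, which was itself past the thresholds and left out by name. Atxn1, Epop and Ptms, further nuclear proteins, were at 41.5% to 45.7%.

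DNA replication, repair and mitosis contributed 8 members, and these shared an order of the libraries. Trip13, an AAA+ ATPase that remodels the checkpoint protein MAD2, had 3195, 2259 and 2025 normalized counts in WT libraries and 656, 512 and 400.2 in hnRNPL-deficient libraries (21.0%). Kntc1, a subunit of the RZZ complex at kinetochores, had 3953, 3099.6 and 3085 against 1431, 1309 and 1057 (37.4%). Fancd2, the central protein of the Fanconi anemia pathway, had 2294, 1711 and 1680.1 against 894, 761 and 588 (39.5%). WT1 was the highest WT library and KO1 the highest hnRNPL-deficient library for all 8, and KO3 was the lowest for 6. Tex15, known from meiotic recombination and piRNA-directed silencing, had 796, 437 and 458 against 237, 213 and 207 (38.9%). Xrcc3, a protein of homologous recombination, had 1077, 659 and 712 against 398, 369 and 378 (46.8%). Rfc2, a subunit of the clamp loader, had 4333, 3974 and 3724 against 2156, 2154 and 1690.0 (49.9%), and Dlgap5, a spindle protein, 1611, 1221 and 1249 against 777, 709.8 and 548 (49.9%). WT values of Tex15 and Xrcc3 differed more among themselves than did their hnRNPL-deficient values, while Rfc2 and Dlgap5 were at the edge of the rule. Dctd, a dCMP deaminase that feeds the thymidylate pathway, stood at 45.6%.

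Other genes of these pathways leaned the same way without passing the test in most cases. Among the 29 non-member genes of the list of Fanconi, homologous recombination and clamp loading genes, 28 had a log2 fold change below 0. The share below 0 was 52.7% of all tested genes and 58.7% of tested genes with a WT mean of at least 300. Limma called 4 of the 29 lower and none higher (4.08% and 7.28% of all tested genes). Brca2 fell from 6286, 4297 and 4441 to 2939, 2458 and 2371 (log2 fold change -0.94, SE 0.161, limma adjusted p = 0.00914) and Rad54l, a DNA translocase of homologous recombination, fell to 60.8% (log2 fold change -0.72, limma adjusted p = 0.0187), both in each leave-one-out fit. Fanci, the partner of Fancd2 (63.7%, limma adjusted p = 0.0770), was called without KO1 and lost without each other library and without the trend. The clamp loader subunits that join Rfc2 were at 81.7% (Rfc1), 79.0% (Rfc3), 76.6% (Rfc4) and 69.7% (Rfc5), none of them called. All 33 non-member genes of the kinetochore, spindle checkpoint and spindle list were below 0, with a median of -0.40, yet limma called 1, Spdl1, which recruits dynein to the kinetochore (57.5%, log2 fold change -0.80, SE 0.134, limma adjusted p = 0.00843). Zwilch, the RZZ partner of Kntc1, was at 75.0% and not called (limma adjusted p = 0.180). How much of this stems from fewer dividing cells and how much from less RNA per cell cannot be told apart in bulk samples.

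Protein turnover and the nuclear envelope were represented by 6 members. Ufsp2, the main protease that matures and removes the ubiquitin-like modifier UFM1, had 1713, 1544 and 1527 normalized counts in WT libraries and 420.1, 373 and 418 in hnRNPL-deficient libraries (25.3%). Ankle2, a LEM-domain protein that helps to rebuild the nuclear envelope after mitosis, had 6109, 5649 and 5303 against 1520.0, 1537 and 1475 (26.6%). Both had hnRNPL-deficient libraries that were nearly equal. Nup133, a subunit of the Y complex of the nuclear pore, had 5171, 4948 and 4424 against 1647, 1796 and 1369 (33.1%). Usp24, a deubiquitinase, had 17810.4, 16997 and 15881 against 6029, 7511 and 8125 (42.7%), and Dcaf7, a WD40 adaptor of ubiquitin ligases and DYRK kinases, 15515, 12762 and 12155 against 7105, 6759 and 6339 (50%). Thop1, a cytosolic peptidase, stood at 49.7%.

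In 2 of these cases the partners of the member were counted too, and none was called. None of the 8 other genes for UFM1 conjugation was called by limma. Ufm1 itself stood at 115% of WT and Ufl1, its ligase, at 135%, and Odr4, with which UFSP2 works at the endoplasmic reticulum, stood at 139.7% with a limma adjusted p of 0.0325 but under 1.5-fold. Ufsp1, the other UFM1 protease, had a mean of 50.3 in WT and 97.1 in hnRNPL-deficient cells and was not called (limma adjusted p = 0.111). In the Y complex, none of the 9 other genes was called, all 9 being below 0 with a median log2 fold change of -0.26. Nup107, which binds NUP133 directly, was at 72.6%, Nup85 at 72.4% and Nup43 at 68.2%. The range over these 9 was 68.2% to 96.7%, compared with 33.1% for Nup133. Because the rule keeps abundant non-members above 50%, nothing is read from this difference.

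Signalling members comprised 7 kinases and second messenger genes and 4 regulators of small GTPases. Dock11, which activates CDC42 and is abundant in B cells, had 15919.9, 14176 and 13909.8 normalized counts in WT libraries and 3421, 3634 and 4975 in hnRNPL-deficient libraries (27.3%). Ppp6r3, a regulatory subunit of protein phosphatase 6, had 10033, 9744 and 9288 against 3246, 3595 and 4631 (39.5%). The groups of both abundant genes were widely separated, with KO3 the highest of the hnRNPL-deficient libraries. Ralgapa1, the catalytic subunit of a RAL GTPase-activating complex, had 7498, 6981 and 6956 against 2548, 3079 and 4583 (47.6%). Rasa4, a calcium-dependent RAS inhibitor, had 810.0, 1217 and 1263 against 467, 577 and 411 (44.2%). KO3 was the highest hnRNPL-deficient library in the first of these and the lowest in the second. Arfgap3 (31.4%) acts on ARF1 at the Golgi. Fgr, a SRC-family kinase (40%), Pde8a, a cAMP phosphodiesterase (40.1%), Itpr3, a calcium channel of the endoplasmic reticulum (47.5%), Dgkh, a diacylglycerol kinase (48.6%), and Tnik, a kinase of the Wnt pathway (49.2%), were further members with these roles.

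Cd2ap and the motor proteins Myo1g and Myo9b were among the 13 members for cytoskeleton, scaffolds and vesicle fusion. Myo1g, a class I myosin of lymphocyte membranes, had 10637, 12999 and 12371 against 4379, 5447 and 4183 (38.9%). Myo9b, a myosin that carries a GTPase-activating domain, had 6484, 7806 and 7562 against 2209.7, 2897 and 2342 (34.1%). For both genes WT1 was the lowest WT library. Cd2ap, an adaptor between receptors and actin, had 18272, 13212 and 13740.0 against 7557, 6527 and 8527 (50%). The list of class I and class IX myosins and small GTPase regulators held 19 tested non-members, with a median log2 fold change of -0.03. Limma called none of the 19 lower and 1 higher (4.08% and 7.28% of all tested genes). Ralgapb, the partner of Ralgapa1 in its complex, stood at 114% and the alternative catalytic gene Ralgapa2 at 135%, and neither was called.

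Shank1 had the lowest ratio of all members. It encodes a scaffold of the postsynaptic density, and it had 1648, 2525 and 2816 normalized counts in WT libraries and 194, 319 and 309.8 in hnRNPL-deficient libraries (11.8%). The lowest WT library exceeded the highest hnRNPL-deficient library 5.17 times, the widest gap in the set, although the spread within each group was also large (a coefficient of variation of 26.1% in WT and 25.4% in hnRNPL-deficient cells, beside medians of 13.0% and 16.3% over the members). Other genes best known from neurons or cilia were found in the same group. Pacsin1, an F-BAR protein of endocytosis, had 391, 407 and 472 against 109, 176 and 93.2 (29.8%). Dnah8, an axonemal dynein heavy chain, stood at 33.7%, and Agrn, the heparan sulfate proteoglycan agrin, at 39.7%. Ctnnal1 (31.7%) is related to alpha-catenin and Tns3 (39.0%) links integrins to actin, while Marcksl1 (46.7%), Ccdc88a (47.1%) and Spire1 (47.5%) act on actin.

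Enzymes of mitochondria, lipids and lysosomes numbered 11. Pld4, an endolysosomal exonuclease that degrades single-stranded nucleic acids, had 1866, 2129 and 2462 normalized counts in WT libraries and 481, 453 and 334 in hnRNPL-deficient libraries (19.7%). Acadsb, which oxidizes branched-chain acyl-CoA from isoleucine, had 807, 659.7 and 592 against 171, 191 and 215 (28.0%). Plbd1, a lysosomal phospholipase B-like protein, had 4782, 3981 and 4074 against 1247, 1366 and 1107 (29.0%). In each of the 3 the lowest WT value was over 2 times the highest hnRNPL-deficient value. Bpnt1 (35.0%) hydrolyses the by-product of sulfation, Me2 (38.2%) is a mitochondrial malic enzyme, Iars2 (43.5%) charges mitochondrial tRNA with isoleucine and Mgll (44.3%) cleaves monoacylglycerol. Nme7 (35.5%), St3gal5 (49.1%), Arsb (49.7%) and Txnrd3 (49.9%) make up the remainder.

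Among non-members in the pathways of Pld4 and Acadsb, the called genes were all lower for Pld4 and went both ways for Acadsb. Pld3, a paralog of Pld4 with the same exonuclease activity that is named after its values were seen, had 1333, 1689 and 1656 against 2385, 2433 and 1887, which is 143% of WT, with a limma adjusted p of 0.0523 but under 1.5-fold. Of the 14 tested non-members in the list of the phospholipase D family and TLR trafficking, 11 had a log2 fold change below 0 (52.7% of all tested genes). Limma called 3 of the 14 lower and none higher (4.08% and 7.28% of all tested genes). These were Tlr3 (53.6%, limma adjusted p = 0.0424), Tlr4 (61.1%, limma adjusted p = 0.0969) and Cd180 (66.4%, limma adjusted p = 0.0208). Tlr4, the LPS receptor, fell from 1306, 865 and 721 to 695, 489 and 584, and its call was lost without WT1, WT2, KO2 or KO3 (limma adjusted p up to 0.229). The call of Tlr3 was lost without WT1, WT3 or KO2, and that of Cd180, a TLR-like protein that modulates LPS responses, without WT1 or KO2. Equal totals ended the calls of Tlr4 and Cd180, as did leaving out the trend for Tlr4 and quantile normalization and edgeR for Cd180. Tlr9, whose ligands PLD4 degrades, stood at 81.2% and was not called. Among the 24 tested non-members for branched-chain amino acid breakdown, limma called 1 lower and 3 higher (4.08% and 7.28% of all tested genes). Their median log2 fold change was 0.19. Bcat1, the cytosolic transaminase of the first step, fell to 64.0% (log2 fold change -0.64, SE 0.104, limma adjusted p = 0.00709), with a call lost without KO1, where the fold was under 1.5, and under quantile normalization. Acad8, the related dehydrogenase for the valine branch, rose from 30.2, 36.3 and 38.2 to 119.9, 146 and 94.6 (log2 fold change 1.74, SE 0.265, limma adjusted p = 0.00552). The 2 genes of the E1 component, Bckdha and Bckdhb, rose to 160.3% and 194% (limma adjusted p = 0.0485 and 0.0301), and these calls were lost without WT1, WT2, KO1 or KO2 for Bckdha and without WT3 for Bckdhb.

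Over all 12 pathway lists, which held 340 genes and 38 of the members, 285 tested genes were not members. Limma called 26 of these lower (9.12%) and 13 higher (4.56%), against 4.08% and 7.28% of all tested genes and 4.52% called lower among genes with a WT mean of at least 300. The lists follow the pathways of the members and were chosen with earlier results of these data known. The shares, here and for the single lists, are therefore a description and not an independent test.

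**Figure D3:**
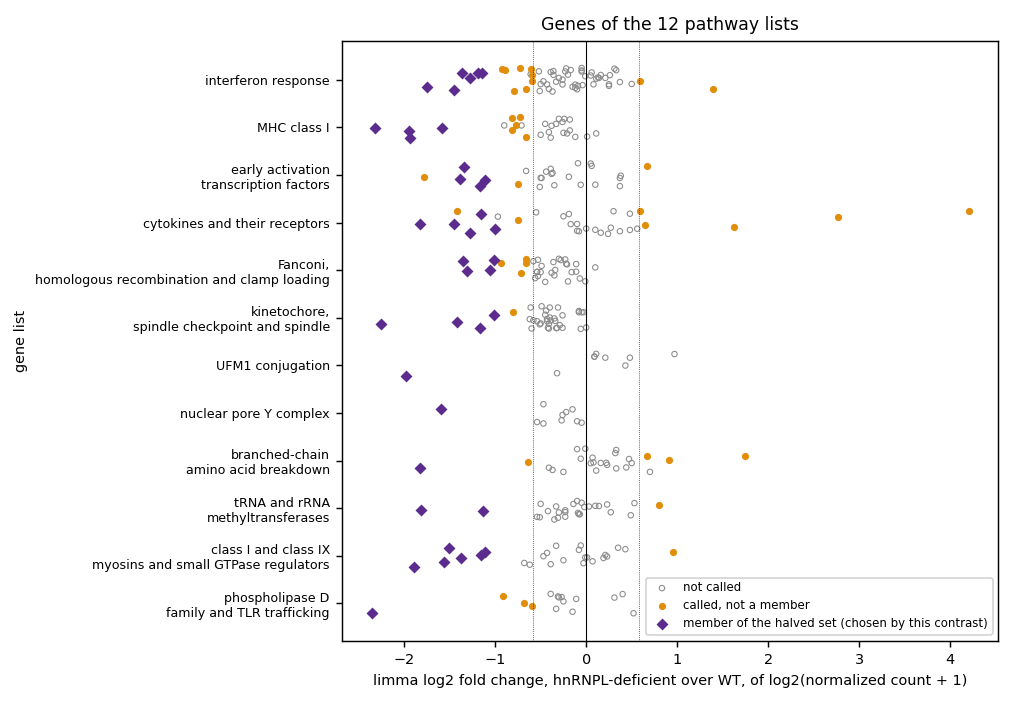
Limma log2 fold change (hnRNPL-deficient over WT, of log2(normalized count + 1)) of each tested gene in the 12 pathway lists, with called non-members in orange, members in purple and genes not called as open circles. Dotted lines mark 1.5-fold. Members lie left of the other genes because this contrast chose them, and called non-members are found on both sides for cytokines (2 lower, 5 higher) and branched-chain amino acid breakdown (1 lower, 3 higher), but on the left alone for MHC class I (5 lower, 0 higher).

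RNA and translation genes were 6. Tent5c, a noncanonical poly(A) polymerase active in plasma cells, had 845, 786 and 883 normalized counts in WT libraries and 263, 267 and 159 in hnRNPL-deficient libraries (27.4%). Tarbp1, which methylates the ribose of a guanosine in tRNA, had 3182, 2916 and 2514 against 746, 739 and 972 (28.5%). Trmt10a, which methylates the base of a guanosine in tRNA, had 1075, 1014 and 877 against 427, 494 and 432 (45.6%). The groups were clear of each other in all 3, which the rule requires. The hnRNPL-deficient library that stood apart was KO3, on the low side in Tent5c and on the high side in Tarbp1. Of the 26 other tested tRNA and rRNA methyltransferases, limma called none lower and 1 higher (4.08% and 7.28% of all tested genes). The called gene was Trmt12, with 327, 318 and 317 against 563, 560.4 and 556 (log2 fold change 0.80, SE 0.130, limma adjusted p = 0.00718). Rpl22l1, the paralog of ribosomal protein RPL22 (39.8%), Eef1akmt4, a methyltransferase of elongation factor 1A (40.8%), and Dancr, a long noncoding RNA (49.1%), closed this group. The 29.2% of Eef1akmt4 windows that recur in the overlapping gene model Gm49333 make its level uncertain.

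The remaining 10 members had survival or less defined roles. Bcl2a1d, an anti-apoptotic BCL2 relative, had 10453, 8777 and 8466 against 4358, 3490.3 and 4934 (46.2%). It is nearly identical to Bcl2a1a and Bcl2a1b, and 54.7% of its windows recur in other genes, so that its counts may be shared among copies. Tmem267 (32.5%), Tmco4 (33.3%), AW011738 (33.9%), Nxpe2 (43.6%), Tm9sf4 (43.8%), Mmd (45.8%), Fam167a (46.2%), Sh3tc1 (49.1%) and Fam120c (50%) ranged from 478 to 3974 normalized counts in WT means. Windows shared with other genes reached 21.5% in Mmd and 17.9% in Ifi209, and 76 of the 92 members had none.

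**Figure D4:**
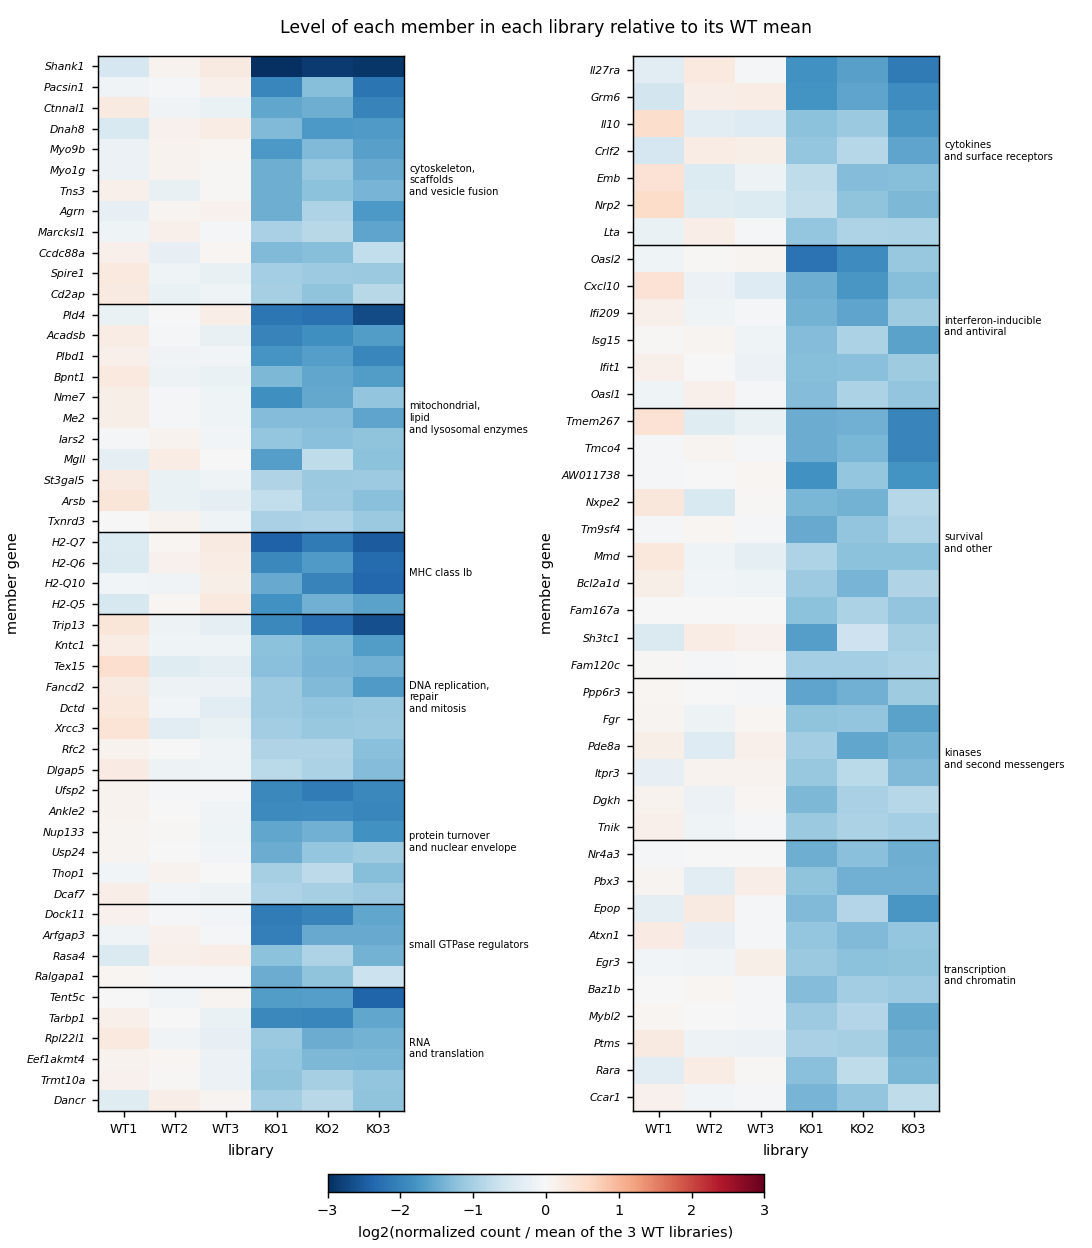
Level of 90 members in each library as log2(normalized count / mean of the 3 WT libraries), grouped by role and ordered within a role by the ratio. All hnRNPL-deficient columns are blue. Shank1 (11.8%) is the darkest, and the 8 genes of DNA replication, repair and mitosis are highest in WT1 among WT libraries and in KO1 among hnRNPL-deficient libraries.

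Levels per length of exon placed the members in a different order. Bcl2a1d had 10697 normalized counts per kb of exon in WT cells and 4937 in hnRNPL-deficient cells, followed by Ifi209 with 5502 and 2165. Isg15 and Ifit1 were close in level per kb, with 2839.5 and 2765 in WT and 1187 and 1208 in hnRNPL-deficient cells. Shank1, with 222 and 26.1 per kb, and Agrn, with 35.2 and 14.0, were low by this measure. Over the set the median was 292 per kb in WT cells, compared with 489.8 over abundant named genes.

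Several members were neighbours. In GENCODE (GRCm38), 11 of the 92 (12%) lay within 100 kb of another member, against 192 of the 8497 other abundant named genes (2.26%). Agrn (chr4:156165290-156197488), Isg15 (chr4:156199424-156200818) and AW011738 (chr4:156203304-156205151) follow each other with gaps of 1.94 and 2.49 kb, at 39.7%, 41.8% and 33.9% of WT. The next gene, Perm1, was low in WT cells and had 22, 19.9 and 35.9 against 6.31, 12.1 and 5.48 (30.7%), and the genes after it, Plekhn1 and Noc2l, stood at 124% and 79.3%. In the 3 members KO2 was the highest hnRNPL-deficient library. Oasl2 and Oasl1 on chromosome 5 are 11 kb apart at 31.2% and 45.5%, and the neighbours Ankrd13a and Sppl3 stood at 107% and 99.4%. Iars2 and Bpnt1 on chromosome 1 start 2.75 kb apart in opposite directions at 43.5% and 35.0%, flanked by Rab3gap2 (106%) and Eprs (90.8%). The H2-Q genes span chr17:35394126-35474563, where Gm11131 (45.2%) was past the thresholds and left out by name, H2-Q4 was at 60.3% and the gene models Gm8750 and Gm8752 at 87.1% and 86.2%.

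**Figure D5:**
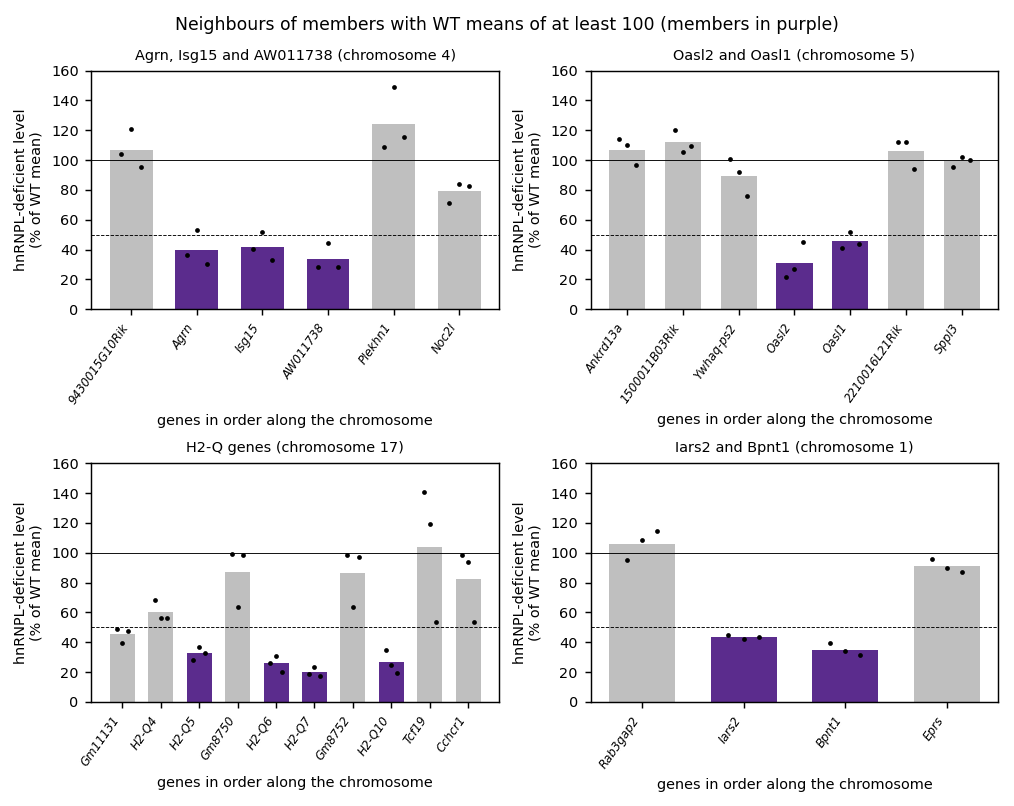
Mean hnRNPL-deficient level as a percent of the WT mean (bars from 0) for genes in order along 4 stretches of chromosome, with the 3 hnRNPL-deficient libraries as points, members in purple and lines at 100% and 50%. Members stand at 19.8% to 45.5%, while of the other genes Gm11131 (45.2%) and H2-Q4 (60.3%) are also low, and Noc2l (79.3%), Sppl3 (99.4%), Eprs (90.8%) and, among the H2-Q members, Gm8750 (87.1%) and Gm8752 (86.2%) are higher.

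Members were counted by position, where 92 of 8589 abundant named genes in the genome were members. Within 20 Mb of Hnrnpl (chr7:28808541-28822266), 1 of 242 abundant named genes was a member. This was Shank1, 15.5 Mb away, which had the lowest ratio of all members. Chromosome 7 had 3 members among 613 abundant named genes (0.489%). At counts this small, neither a lack nor an excess of members is read from them. The largest number was on chromosome 5, with 11 members (1.96% of its abundant named genes), and chromosomes 4 and 17 had 9 each (1.68% and 2.01%). Dock11 and Fam120c are X-linked, and WT3, the WT library with high Xist, had 13909.8 and 863 normalized counts of them, against 14176 and 15919.9 and against 819 and 868 in the other WT libraries. Members extended over a median of 38.0 kb in the genome and 5.63 kb of exon, against 24.2 kb and 4.68 kb for abundant named genes, and 20.7% were longer than 100 kb (11% of abundant named genes). A run of 5 CA repeats, as hnRNPL can bind, was in the longest transcript of 11 members (12%), namely Atxn1, Dctd, Dgkh, Iars2, Ifi209, Nrp2, Pacsin1, Rara, Tmem267, Ufsp2 and Xrcc3, and in 9.08% of abundant named genes. Introns were not searched, so these shares do not cover sites in nascent RNA outside exons.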

How the data were processed

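RNA-seq of 3 WT and 3 hnRNPL-deficient libraries was used, grouped by the submitters' labels. The authors trimmed reads with fastp 0.23.1, aligned them with STAR 2.7.9a to mm10, counted them per gene and by strand with featureCounts and divided the counts by DESeq2 1.38.2 size factors. The deposited values are these normalized counts, a signal per library. The deposited log2 fold changes and their errors, the test score and the p-values of the authors were not used. Every value was a whole multiple of the smallest of its library (100.0% within 0.02), so that reads could be recovered. On those reads edgeR 4.0.16 called 659 genes lower and 1413 higher, and DESeq2 1.42.0 called 795 and 1412.

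The members and gene lists were chosen with earlier results of these data known. Non-members were tested with limma 3.58.1 (R 4.3.3) (trend on) after log2(normalized count + 1), over 17640 genes with a mean of at least 10, and called at 1.5-fold or more with a p, adjusted after Benjamini-Hochberg, under 0.1. Fold changes are on that scale, which understates low genes. With 3 against 3, exact permutation could not have given a p below 0.1. Genes were named by a rule, namely members with the 15 lowest ratios, the 10 highest WT means, those in a list or next to a threshold, and, among non-members, the largest called changes of a list and partners of members; other genes are marked, or serve as markers, flanking genes or the rest of a role group. Alternatives were other pseudocounts, filters, scalings and thresholds, no trend, the replicate number as a block, each library left out and, added after the data were seen, the count tests and the rule without WT3 and KO2. Positions are from GENCODE on GRCm38 and promoters from RefSeq on GRCm38.p6. Promoters of 18 members were not analysed here. Results for a few genes are not reported here, among them 2 members that the plot of members by library also leaves out.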

Additional observations from a re-analysis of the deposited data

How the results depend on the processing

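The set held 76 genes under equal totals, all of them members, 96 under quantile normalization with 86 of the 92 members, 87 with medians in place of means with 76 of the members, and 111 and 71 with a WT minimum of 150 and 600. With a ratio of at most 0.4 it held 45 genes. With each library left out in turn it held 85 to 104 genes, of which 74 (without WT1) to 89 (without WT3) were members. Without both libraries of high Xist, 88 of the 92 members stayed in a set of 110. Limma called 719 genes lower and 1284 higher. At an adjusted p under 0.05 and 2-fold, the calls were 216 lower and 610 higher, and among listed genes 38 lower and 5 higher, in place of 64 and 13. Leaving out a library gave 483 to 695 genes called lower, 850 (without WT3) to 1124 called higher, 57 to 67 listed genes called lower and 8 (without WT3) to 16 listed genes called higher, and 90 to 92 of the members were called lower. Of the 26 listed non-members called lower, 11 kept the call in all 6 of these fits, and of the 13 called higher, 6 did. The direction of 54 members and 71 non-members was followed under the alternatives, and none changed. For the members the rule sets the direction, so nothing is read from that.

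Whether the replicate numbers pair the samples was not settled, and the main fit did not use them as pairs. The deviations of same-numbered libraries correlated at 0.43, 0.32 and 0.07. WT1 correlated best with KO1 and WT2 with KO2, whereas WT3 also correlated best with KO2 (0.31). Under a replicate block, in which each hnRNPL-deficient library had to be at most 0.5 of the WT library with its number, the set held 52 genes, all of them members. With the number as a block in limma, 1018 genes were called lower and 1755 higher, and 70 and 15 of the listed genes. The depth of the libraries limits low genes such as Csf2, Il7r and Ccl3 most, and for near-identical genes the limit is the sharing of reads.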
